A study of Mus musculus with 14 samples.

Results

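The 10 genes of cell survival and cell death described here were followed in cells sorted as tumour dendritic cells. They are the BCL2 family members Bcl2, Bcl2l1, Mcl1, Bcl2a1b, Bcl2a1d, Bcl2l11 and Bax, and the inhibitors of caspase activation Birc2, Birc3 and Cflar. They were chosen by name as family members and caspase inhibitors, with earlier results of these data known. All 10 were found among the 21205 genes of the table. In the mitochondrial pathway of apoptosis, BH3-only proteins such as BIM (Bcl2l11) free the pore former BAX from BCL2, BCL-XL (Bcl2l1), MCL1 and A1, the product of the Bcl2a1 copies. Death receptors use a separate route through caspase-8, which c-FLIP (Cflar) blocks and which cIAP1 (Birc2) and cIAP2 (Birc3), ubiquitin ligases of TNF receptor signalling, restrain. Bcl2a1 copies, Birc3, Cflar and Bcl2l1 are textbook targets of NF-κB, and the lifespan of dendritic cells is known to depend on this family.

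The cells were sorted as type 1 conventional dendritic cells (cDC1), which cross-present tumour antigen. They came from subcutaneous tumours of female mice that had been injected with YUMM1.7, a mouse melanoma line. Each of the 14 plates held cells of 1 tumour of 1 mouse, so the plate is the replicate. The control genotypes were Irf1_FF (4 plates, 165 cells) and Ikbkb_FF (1 plate, 34 cells), and the targeted ones Irf1_dXCR1 (5 plates, 223 cells) and Ikbkb_dXCR1 (4 plates, 133 cells). In the naming of the study FF stands for floxed alleles and dXCR1 for their deletion by a Cre under control of Xcr1; the labels spell out neither. IRF1 is a transcription factor induced by interferons, and the Ikbkb product IKKβ is the kinase that activates canonical NF-κB. The Irf1 groups formed experiment M3, with mice aged 6 weeks. In experiment M2, the Ikbkb_FF mouse and the mice of Ikbkb_dXCR1 replicates 1 and 2 were 8 weeks old, and those of replicates 3 and 4 were 6 weeks old. The comparisons ask how these genes differ when either regulator is targeted, and how they differ between maturation classes of cells within a tumour.

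Plates held 2810321 to 10120557 unique molecular identifiers (UMIs, one code per captured transcript) in 18 to 59 cells; the median cell had 143476 UMIs and 1578 detected genes. Levels are UMI counts summed over the cells of a plate and given as CPM, that is, UMI counts brought to one common library total after TMM scaling; TMM was computed in each fit, so the CPM of the same cells differ slightly between comparisons. Irf1 transcripts spanned 201 to 437 CPM in Irf1_FF and 96.7 to 336 in Irf1_dXCR1 plates, and Ikbkb transcripts 111 to 312 CPM in Ikbkb_dXCR1 plates against 299 in the control. These ranges overlap, and because UMIs mark the 5′ end of a transcript they do not check a deletion further along. Cells with at least 1 Ccr7 UMI (170 cells, 27 of them also with Xcr1) were set against cells with Xcr1 and no Ccr7 UMI (149 cells); CCR7 is the chemokine receptor of migrating, mature dendritic cells and XCR1 the receptor that marks cDC1. The remaining 236 cells had neither UMI. Both genes define the classes, so neither is a result.

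The classes matched their names in part. On average, a marker of immature cDC1 (10 genes) was detected in 71.7% of Xcr1+ Ccr7- and 26.1% of Ccr7+ cells, and a marker of mature dendritic cells (10 genes) in 8.99% and 60.1%. Irf8, the cDC1 lineage factor, was found in 93.3% and 73.5% of cells, and Clec9a, a cDC1 receptor for dead cells, in 55.0% and 15.9%. Ccr7+ cells carried more surface MHC class II in all 9 plates with stainings of both classes (9.88 against 8.75 on the arcsinh scale; exact permutation p = 0.00391, the smallest these plates allow). Surface CD11b, an integrin of other myeloid and dendritic cells, was also higher in Ccr7+ cells, at 6.48 against 3.07 and in 7 of 9 plates (exact permutation p = 0.0273); its part in the class results was not tested. Surface XCR1 was 8.38 against 8.87 (exact permutation p = 0.0508). Of the 6 measures compared, CD11c, CD64 and forward scatter had exact permutation p-values of 0.0938, 0.793 and 0.211; none of these p-values is adjusted. Markers of macrophages, fibroblasts or endothelium, T cells or NK cells were also found. At least 2 of 1 list were present in 51.0% of Xcr1+ Ccr7- cells, 30.0% of Ccr7+ cells and 62.3% of cells with neither UMI. By plate they were present in 16.7% of all cells (Ikbkb_dXCR1 replicate 1) to 86.0% (Irf1_FF replicate 1). Levels over all cells of a plate include such cells. Whether these libraries held other cells or free RNA was not tested. All 10 macrophage and monocyte markers were present in both classes. Their summed level was 250.4 to 3645 CPM in Xcr1+ Ccr7- and 375 to 2849 CPM in Ccr7+ cells. The NK markers Ncr1, Klrb1c and Prf1 had no UMI in either class. Gzma, the other NK marker listed, was found in 0.671% of Xcr1+ Ccr7- and 0% of Ccr7+ cells. Cell cycle markers, at least 2 of 6, were found in 33.6% and 7.65% of cells, and the median cell had 187354 and 132930 UMIs. Fewer positive cells and less RNA per cell cannot be told apart in summed counts, so the shares of positive cells are given further on.

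Among the 3 annotated Bcl2a1 copies of mouse chromosome 9, 2 belong to the group: Bcl2a1d (88723285 to 88731914, minus strand) and Bcl2a1b (89199209 to 89207827, plus strand; build GRCm38). Bcl2a1a (88956900 to 88962419, plus strand) is the other copy. Their coding sequences are 519 bases long; Bcl2a1b and Bcl2a1d differ at 6 of these bases (98.8% identity), and at 3 of the first 100 coding bases, nearest to the sequenced end. The sources used here do not say how reads that fit several copies were assigned, so the split between copies is uncertain. Stretches of 100 bases before the 3 start sites are shown: a chosen stretch of Bcl2a1d and its best match without gaps in each other copy. They begin at position -199 from the start in Bcl2a1d, -205 in Bcl2a1a and -249 in Bcl2a1b. The rest of the promoters was not compared. RefSeq's sequence (GRCm38.p6) holds them at chr9:88731950-88732049 (minus strand), chr9:88956715-88956814 (plus strand) and chr9:89199024-89199123 (plus strand), and the capital marks the single base at which they differ.
Bcl2a1d: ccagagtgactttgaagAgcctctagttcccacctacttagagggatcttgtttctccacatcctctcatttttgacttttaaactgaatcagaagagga
Bcl2a1a: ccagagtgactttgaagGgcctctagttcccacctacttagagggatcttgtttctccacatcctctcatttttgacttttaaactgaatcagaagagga
Bcl2a1b: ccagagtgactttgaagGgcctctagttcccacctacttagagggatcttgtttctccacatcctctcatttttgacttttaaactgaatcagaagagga

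Both Bcl2a1 members rose in Ccr7+ cells. The comparison used the 11 plates with at least 5 cells of each class and took the plate as a block; Irf1_dXCR1 replicates 2 and 3 had 4 Xcr1+ Ccr7- cells each, and Ikbkb_dXCR1 replicate 2 had 4 Ccr7+ cells. Bcl2a1b ranged from 8.51 to 81.4 CPM (median 45.7) in Xcr1+ Ccr7- cells and from 98.9 to 445 CPM (median 297) in Ccr7+ cells. The lowest Ccr7+ library lay above the highest Xcr1+ Ccr7- library, and all 11 plates had the higher value in Ccr7+ cells. The log2 fold change was 2.64 ± 0.55 (SE), or 6.22-fold (edgeR quasi-likelihood test with Benjamini-Hochberg adjustment, adjusted p = 0.0106). Bcl2a1d ranged from 132 to 436 CPM (median 283) and from 376 to 1265 CPM (median 877). Its classes overlapped through the Ccr7+ library of Irf1_FF replicate 1, which had 376 CPM against 436 CPM in the Xcr1+ Ccr7- cells of that plate; the other 10 plates were higher in Ccr7+ cells. The log2 fold change was 1.60 ± 0.27, or 3.02-fold (edgeR adjusted p = 0.00271). Bcl2a1a, which is not a member of the group, stood 1.42 ± 0.40 higher on the log2 scale (edgeR adjusted p = 0.0665), with 10 of 11 plates higher. Of the 9 members that passed the filter on low counts these 2 were past the adjusted p of 0.05, where 3.9% of all 5561 genes were (2.88% higher and 1.02% lower). Plates without overlap were found for 1 member, Bcl2a1b, and for 0.719% of all genes in that direction (0.126% in the other). The 9 members had a median log2 fold change of 2.64, and 8 were above 0, while the median of all genes tested was -0.32. The filter on low counts left out Bcl2, which was lower in Ccr7+ cells. It can also keep a gene for its counts in 1 class alone. These values describe the 9 members and do not test a shared direction.

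**Figure D1:**
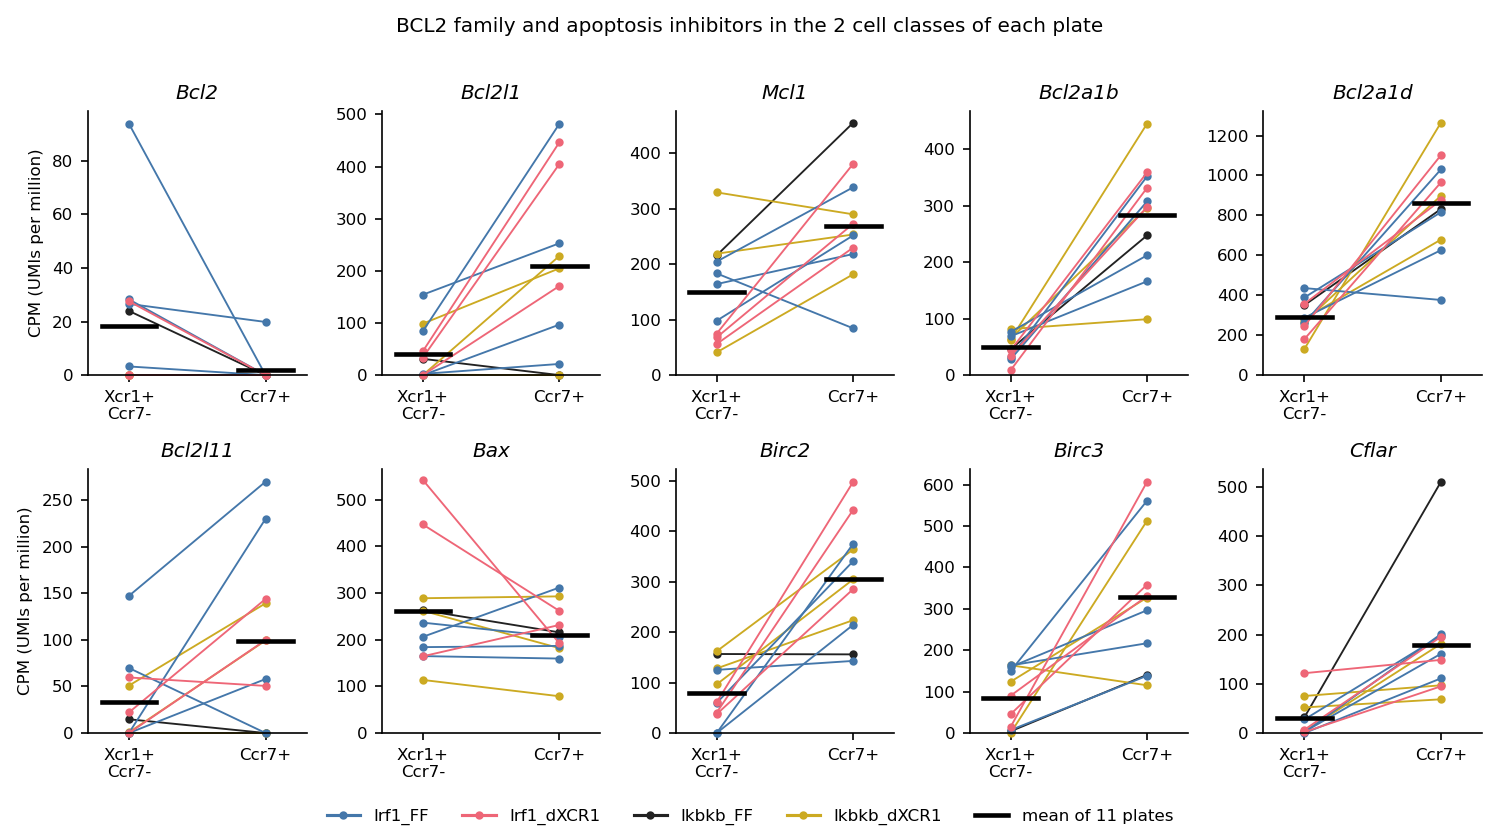
CPM of each gene in Xcr1+ Ccr7- cells and Ccr7+ cells of 11 plates, 1 line a plate, coloured by genotype, with a linear axis from 0 in each panel. Every Bcl2a1b and Cflar line goes up, from 8.51 to 81.4 CPM up to 98.9 to 445 CPM for Bcl2a1b, while 7 of 11 Bax lines go down.

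The fit was repeated without cycling cells and without cells that carry markers of other lineages, both of which were more frequent among Xcr1+ Ccr7- cells. Without cells that carry cell cycle markers, 7 plates remained; the log2 fold change was 1.56 ± 0.37 for Bcl2a1d (edgeR adjusted p = 0.0741) and 3.13 ± 1.08 for Bcl2a1b (edgeR adjusted p = 0.262), so neither passed the threshold. Without cells that carry markers of other lineages, 6 plates remained; Bcl2a1d kept its call (2.04; edgeR adjusted p = 0.0384) and Bcl2a1b did not (3.99; edgeR adjusted p = 0.162), while Birc2 was called as higher; 89 of 4339 genes were called in that fit. Within experiment M3 the mean difference in log2(CPM + 1) between the classes was 2.97 ± 1.31 (SD, n = 7 plates) for Bcl2a1b and 1.40 ± 0.89 for Bcl2a1d. Within M2 it was 1.92 ± 1.12 and 1.88 ± 0.95 (n = 4 plates).

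Cflar, Birc2 and Birc3, which hold back caspase-8 and TNF-induced death, stood higher in Ccr7+ cells of nearly every plate, but their calls depended on the test. Cflar (chromosome 1, 58711508 to 58758884, plus strand) had 0 to 122 CPM (median 6.76) in Xcr1+ Ccr7- cells and 68.5 to 511 CPM (median 161) in Ccr7+ cells. The Ccr7+ value was the higher one in all 11 plates, while the ranges overlapped through Irf1_dXCR1 replicate 1 (122 CPM) and Ikbkb_dXCR1 replicate 1 (75.3 CPM) among the Xcr1+ Ccr7- libraries. Its log2 fold change of 4.30 ± 1.19 missed the threshold in edgeR (adjusted p = 0.0600). An exact permutation test that flips the sign of each plate's difference, chosen after seeing the data and adjusted over all genes, called it (mean difference 3.77 ± 2.45 SD on the log2(CPM + 1) scale, n = 11 plates, adjusted p = 0.0268). That test called 5 members, namely the 2 Bcl2a1 copies, Cflar, Birc2 and Birc3, and 8.52% of all genes (4.53% higher).

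Birc2 (chromosome 9, 7818227 to 7837064, minus strand) had 0 to 162 CPM (median 61.1) in Xcr1+ Ccr7- and 143 to 498 CPM (median 305) in Ccr7+ cells. Ikbkb_FF replicate 1 was the only plate where the classes stood level, at 157 and 156 CPM; the other 10 plates were higher in Ccr7+ cells. The log2 fold change was 2.53 ± 0.98 (edgeR adjusted p = 0.224; sign-flip permutation adjusted p = 0.0327), and edgeR called it without cells that carry markers of other lineages. Its neighbour Birc3 (7848699 to 7873186, minus strand) had 0 to 164 CPM (median 90.0) and 115 to 607 CPM (median 327). Here Ikbkb_dXCR1 replicate 1 was the exception, with 164 CPM in Xcr1+ Ccr7- and 115 CPM in Ccr7+ cells. The log2 fold change was 2.71 ± 0.90 (edgeR adjusted p = 0.137; sign-flip permutation adjusted p = 0.0419). Within experiment M2 the mean log2 difference of Birc2 was 0.90 ± 0.70 (SD, n = 4 plates) and within M3 it was 4.04 ± 3.00 (n = 7 plates).

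The other guardians of the mitochondrion were less even across plates. Mcl1, a short-lived BCL2 relative (chromosome 3, 95658788 to 95663176, plus strand), had 41.0 to 329 CPM (median 164) in Xcr1+ Ccr7- and 84.3 to 455 CPM (median 254) in Ccr7+ cells. The classes overlapped widely, and 9 of 11 plates were higher in Ccr7+ cells (log2 fold change 1.04 ± 0.44; edgeR adjusted p = 0.297). Bcl2l1, which encodes BCL-XL (chromosome 2, 152780668 to 152831728, minus strand), had 0 to 154 CPM (median 31.2) and 0 to 482 CPM (median 205). All 7 plates of M3 were higher in Ccr7+ cells, against 2 of 4 in M2, where 2 Ccr7+ libraries had no count (3.02 ± 1.62; edgeR adjusted p = 0.453). Bcl2, the founding survival gene of the family (chromosome 1, 106538178 to 106714274, minus strand), took the other direction. Its counts were 0 in 10 of 11 Ccr7+ libraries, where 3 counts would be 0.992 to 2.89 CPM, and Irf1_FF replicate 1 had 19.9 CPM. A cell positive for Bcl2 held a median of 25 UMIs of it. A count of 0 therefore means that no cell of the library was positive, and other levels rest on few cells. In Xcr1+ Ccr7- cells it reached 93.9 CPM, with a median of 3.23 CPM and 5 libraries at 0. Bcl2 did not pass the filter on low counts and has no test across all genes. By CPM, 6 plates were lower in Ccr7+ cells, none was higher and 5 were at 0 in both. The exact sign-flip permutation p was 0.0313, not adjusted, the smallest that 6 differing plates allow. By share of positive cells without thinning, 5 plates were lower and 1 was higher in Ccr7+ cells.

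The death-promoting members were not called in edgeR or DESeq2; limma with cells weighted equally called Bax lower in Ccr7+ cells, along with 1889 of 5561 genes. Bcl2l11 (chromosome 2, 128126038 to 128162547, plus strand) had 0 to 147 CPM (median 14.8) in Xcr1+ Ccr7- and 0 to 270 CPM (median 99.4) in Ccr7+ cells, and 7 of 11 plates were higher in Ccr7+ cells. Its log2 fold change of 2.66 had an SE of 2.40 (edgeR adjusted p = 0.708). Bax (chromosome 7, 45461697 to 45466898, minus strand) had 114 to 542 CPM (median 236) and 78.7 to 312 CPM (median 206). Irf1_dXCR1 replicates 1 and 4 stood apart with 542 and 447 CPM in Xcr1+ Ccr7- cells, and 7 of 11 plates were lower in Ccr7+ cells (-0.23 ± 0.32; edgeR adjusted p = 0.835). The annotated spans of Bcl2, Bcl2a1b, Bcl2a1d and Bax overlap other annotated genes, and whether counting used strand is not given in the sources used here.

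**Figure D2:**
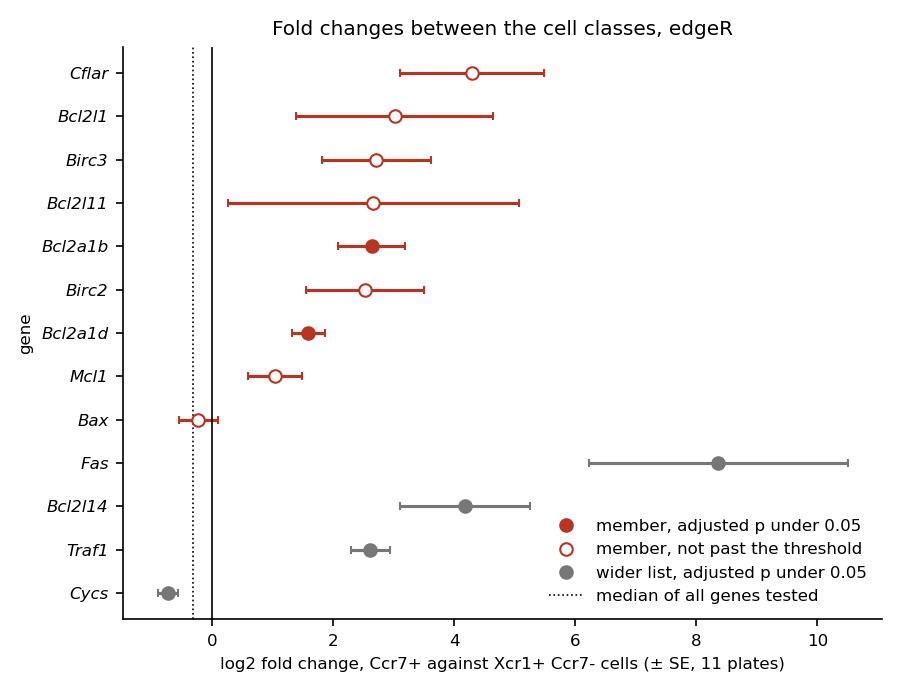
Log2 fold change (± SE) of Ccr7+ against Xcr1+ Ccr7- cells over 11 plates for 9 members (red) and for the wider list's genes past the threshold (grey); filled points have an adjusted p under 0.05, and the dotted line is the median of all genes, -0.32. Bcl2a1b at 2.64 and Bcl2a1d at 1.60 are the filled red points, and Cflar at 4.30 lies further out with an SE of 1.19.

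A wider list of 61 apoptosis genes, 58 of them in the table, gives the setting. The list includes the 10 members, so its counts are no background separate from them. Of its 40 tested genes 27 were above 0 and 13 below, with a median of 1.13, among genes kept by the same filter. Past the threshold, 5 rose and 1 fell. Traf1, an adaptor of TNF receptors that binds cIAP1 and cIAP2, had 50.5 to 369 CPM in Xcr1+ Ccr7- and 703 to 1619 CPM in Ccr7+ cells (2.62 ± 0.32; edgeR adjusted p = 1.52e-04). It rose without overlap between the classes. Bcl2l14, a BCL2 relative, rose by 4.18 ± 1.07 (edgeR adjusted p = 0.0406), and the death receptor gene Fas rose (edgeR adjusted p = 0.0474). The mean of Fas over plates was 12.7 CPM in Xcr1+ Ccr7- and 194 CPM in Ccr7+ cells, with 9 plates higher and 2 at 0 in both classes. Its fitted log2 fold change of 8.36 ± 2.13 is no measure of that rise in CPM; the mean difference in log2(CPM + 1) was 4.81 ± 3.53 (SD, n = 11 plates). Cycs, which encodes the cytochrome c that mitochondria release in apoptosis, fell by 0.72 ± 0.17 on the log2 scale (edgeR adjusted p = 0.0256). By role, 2 of 5 tested survival genes of the BCL2 family rose (Bcl2a1b and Bcl2a1d), 0 of 2 effectors, 0 of 4 BH3-only genes, 0 of 5 inhibitor of apoptosis genes and 2 of 8 death receptors and adaptors. The 8 caspase and apoptosome genes held the fall of Cycs and no rise.

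Counted by cells, the same split appeared. After each cell was thinned to 50000 UMIs, which left out 12 Xcr1+ Ccr7- and 35 Ccr7+ cells as too shallow, Bcl2a1b had a UMI in 32.1% of 137 Xcr1+ Ccr7- cells (exact 95% interval 24.4 to 40.6%) and in 83.0% of 135 Ccr7+ cells (75.5 to 88.9%). Bcl2a1d was found in 66.4% and 87.4% of cells. Cflar was found in 13.9% and 46.7%, Birc2 in 18.2% and 47.4%, and Birc3 in 24.8% and 53.3%. Bcl2a1b, Birc3 and Cflar had the higher share in Ccr7+ cells in 9 of 9 plates with enough cells. Mcl1 was found in 27.0% and 47.4%, Bcl2l1 in 8.03% and 25.9%, and Bcl2l11 in 5.84% and 17.8%. Bax went the other way, with 77.4% (69.4 to 84.1%) and 62.2% (53.5 to 70.4%), and 8 of 9 plates were lower in Ccr7+ cells. Bcl2 was found in 7.30% and 0.741%, that is in 1 Ccr7+ cell. Without thinning the shares were 32.2% and 75.9% for Bcl2a1b, 75.2% and 55.3% for Bax, and 8.05% and 0.588% for Bcl2. Intervals cover counting error only, and the plates, not the cells, are the replicates.

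**Figure D3:**
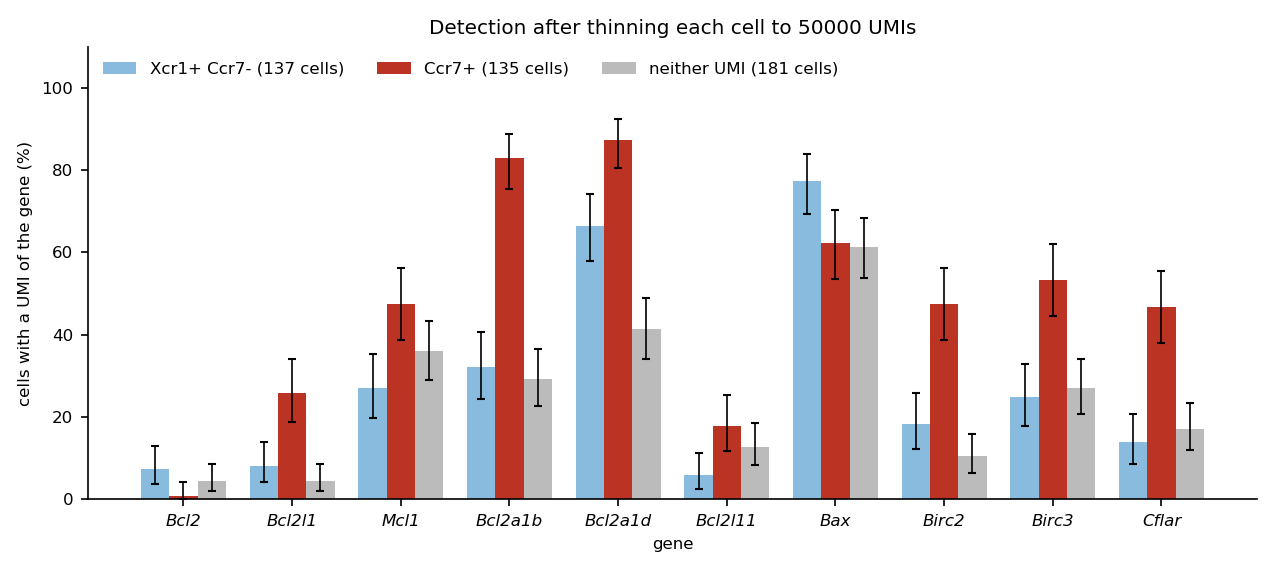
Share of cells (%) with at least 1 UMI of each gene after thinning to 50000 UMIs, in Xcr1+ Ccr7- cells (137), Ccr7+ cells (135) and cells with neither UMI (181), with exact 95% intervals from 0 on a linear axis. Ccr7+ bars are the tallest for 8 genes, from 17.8% for Bcl2l11 to 87.4% for Bcl2a1d, and Bax and Bcl2 are highest in Xcr1+ Ccr7- cells.

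Cells with neither UMI had shares below those of Ccr7+ cells for 9 members. Bcl2a1b was found in 29.3% of these 181 thinned cells, Cflar in 17.1%, Birc2 in 10.5% and Birc3 in 27.1%. Bcl2a1d stood below both classes, at 41.4%, and Bax at 61.3% was near the Ccr7+ cells. No class here is known to lack these genes, so a background of free RNA could not be read from the shares.

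More of the survival genes were detected per cell in the Ccr7+ class than in the Xcr1+ Ccr7- class. Such counts rise with the share of positive cells of each gene, and joint expression beyond those shares was not tested. Bcl2a1b and Bcl2a1d count as 2 genes here, although the split between copies is uncertain. Of the 8 members that restrain death (Bcl2, Bcl2l1, Mcl1, Bcl2a1b, Bcl2a1d, Birc2, Birc3 and Cflar), the median Xcr1+ Ccr7- cell had 2 and the median Ccr7+ cell 4. At least 4 of the 8 were found in 16.1% of 149 and 54.1% of 170 cells, and none in 18.1% and 6.47%. Thinned to 50000 UMIs, the share with at least 4 was 13.9% and 63.0%. Bcl2a1b and Bcl2a1d occurred together in 42 of 149 Xcr1+ Ccr7- cells and in 119 of 170 Ccr7+ cells. In 55 Xcr1+ Ccr7- cells Bcl2a1d was found without Bcl2a1b, against 17 Ccr7+ cells. Any of the 3 Bcl2a1 copies was found in 78.5% and 88.2% of cells.

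The 27 cells with both Xcr1 and Ccr7 UMIs differed among the genes in which class they were near. Bcl2a1d was found in 85.2% of them (66.3 to 95.8%), near the 79.0% of 143 Ccr7+ cells without Xcr1. Bcl2a1b was found in 59.3% (38.8 to 77.6%) and 79.0%, and Birc3 in 59.3% and 46.9%. Birc2 was found in 18.5% (6.30 to 38.1%), the level of Xcr1+ Ccr7- cells (18.1%), while Ccr7+ cells without Xcr1 had 46.9% (38.5 to 55.4%). Bax was found in 74.1% of double-positive cells, 75.2% of Xcr1+ Ccr7- cells and 51.7% of Ccr7+ cells without Xcr1. These cells had a median of 174127 UMIs, against 121830 in Ccr7+ cells without Xcr1. They were too few per plate for a test, so these shares are a description.

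Promoter letters were read in windows from 250 bases before to 50 bases after each start site in RefSeq (GRCm38.p6), on both strands; all 10 members matched, with 14 start sites, among 32851 windows. The 10-base κB consensus was found in 1 member, Bcl2l1, and in 8.46% of all windows. It is shown because NF-κB is the pathway of Ikbkb: chr2:152830934-152830967, minus strand, with the match in capitals at position -242 from the start.
Bcl2l1: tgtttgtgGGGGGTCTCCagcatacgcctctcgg
The core of the interferon-stimulated response element, GAAANNGAAA, was found in 1 member, Cflar (GAAACCGAAA on the opposite strand, 6 bases after the start), and in 3.44% of all windows. The shorter IRF motif AANNGAAA, which that core contains, was found in 7 of the 14 windows of members, which belong to Bcl2l1, Bcl2a1d, Bcl2l11, Birc2, Birc3 and Cflar, and in 23.9% of all windows. The neighbours Birc2 and Birc3 are shown for comparison, at chr9:7836807-7836838 and chr9:7873360-7873399 (both minus strand), with this shorter motif in capitals; in Birc2 it lies on the opposite strand and overlaps other matches.
Birc2: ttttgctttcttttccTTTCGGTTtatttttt
Birc3: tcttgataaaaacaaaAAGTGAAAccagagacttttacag
A match is a run of letters and no evidence of binding.

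No member was called between the Irf1 genotypes. Over all cells of a plate, the log2 fold changes of the 10 members lay between -0.26 (Bcl2l11) and 0.36 (Bax), each with an edgeR adjusted p of 1, and 0% of 16203 genes were called (1272 genes, 0 of them members, had an unadjusted p under 0.05, and DESeq2 called 100 genes, no member among them). Bcl2a1d had 255, 471, 427 and 351 CPM in Irf1_FF replicates 1 to 4 and 485, 312, 587, 446 and 390 CPM in Irf1_dXCR1 replicates 1 to 5. Its groups overlapped, at 376 ± 94.5 CPM (SD, n = 4) and 444 ± 103 CPM (n = 5). Bcl2a1b had 49.2, 196, 143 and 71.8 CPM in Irf1_FF and 131, 106, 134, 107 and 125 CPM in Irf1_dXCR1. The targeted plates lay within the control range, with the smaller spread. Mcl1 had 180, 191, 249 and 146 CPM against 358, 101, 113, 105 and 160 CPM. Of the targeted plates, replicate 1 stood above all controls and 3 others below them. Birc2 spanned 91.6 to 137 CPM in Irf1_FF and 68.4 to 169 CPM in Irf1_dXCR1, and Birc3 64.8 to 221 and 64.8 to 203 CPM. Bcl2l1 spanned 10.6 to 142 and 0 to 155 CPM, and Bcl2 12.2 to 39.7 and 4.30 to 50.5 CPM. All 4 overlapped between the genotypes. Shares of positive cells overlapped as well: Bcl2a1b was found in 20.9 to 54.8% of cells of Irf1_FF plates and 21.6 to 62.7% of Irf1_dXCR1 plates, and Cflar in 16.1 to 30.0% and 8.11 to 38.8%. None of the 10 members had plates without overlap, where 0.673% of all genes did with higher and 0.58% with lower values.

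**Figure D4:**
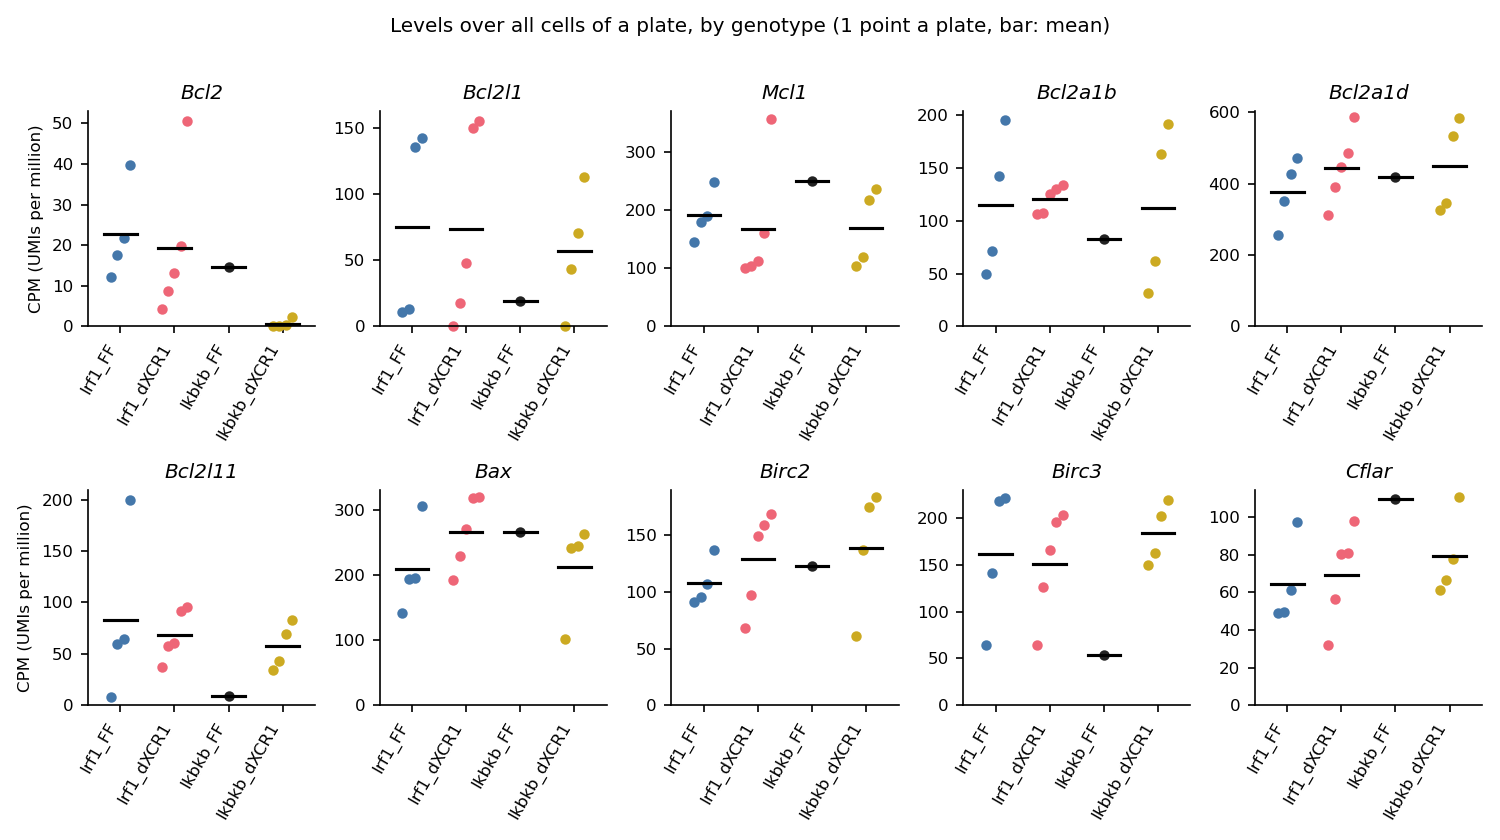
CPM of each gene over all cells of a plate, 1 point a plate, in Ikbkb_FF (1 plate), Ikbkb_dXCR1 (4), Irf1_FF (4) and Irf1_dXCR1 (5), with the group mean as a bar and a linear axis from 0. The Irf1 groups overlap for all 10 genes, while Bcl2 lies at 0 to 2.31 CPM in Ikbkb_dXCR1 and at 12.2 to 39.7 CPM in the 5 floxed control plates. Of these controls, the Irf1_FF plates belong to experiment M3 and the Ikbkb_FF plate to M2, as do the Ikbkb_dXCR1 plates.

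Within Ccr7+ cells (4 Irf1_FF and 5 Irf1_dXCR1 plates) no member was called either, as was no gene of 11786 (0%; 1409 genes, 1 member among them, had an unadjusted p under 0.05 in edgeR, and DESeq2 called 125, no member). Bcl2a1d had 364, 814, 626 and 1005 CPM in Irf1_FF and 850, 898, 988, 1069 and 921 CPM in Irf1_dXCR1. The highest control plate lay within the targeted range and the other 3 below it (0.44 ± 0.38; edgeR adjusted p = 0.813). Birc2 had 138, 374, 215 and 332 CPM against 483, 269, 576, 277 and 422 CPM, with overlap (0.62 ± 0.68; edgeR adjusted p = 0.962). Cflar had 156, 201, 111 and 193 CPM against 144, 162, 75.0, 92.2 and 187 CPM (-0.32 ± 0.96; edgeR adjusted p = 1). The log2 fold changes were 0.43 ± 0.71 for Bcl2a1b, 0.06 ± 0.76 for Birc3, 0.04 ± 0.79 for Mcl1, -0.23 ± 0.90 for Bax and -0.80 ± 1.69 for Bcl2l11 (edgeR adjusted p = 1 each). Bcl2l1 spanned 21.4 to 470 CPM in Irf1_FF and 0 to 426 CPM in Irf1_dXCR1. No member separated the groups; 0.39% of all genes did with higher and 0.518% with lower values. The member with an unadjusted p under 0.05 was Bcl2, which was counted in 1 control plate only (19.2 CPM), so its difference rests on that plate. Bcl2l14 of the wider list, named after its values were seen, had 270.3, 875, 837 and 1572 CPM in Irf1_FF and 235, 0, 0, 66.0 and 191 CPM in Irf1_dXCR1 plates, without overlap (-3.18 ± 0.94; unadjusted p = 0.00163, edgeR adjusted p = 0.386).

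Within Xcr1+ Ccr7- cells (4 and 3 plates) Mcl1 had 165, 185, 211 and 97.7 CPM in Irf1_FF and 77.7, 57.6 and 68.3 CPM in Irf1_dXCR1 replicates 1, 4 and 5. All 3 targeted plates lay below the 4 controls, as did those of 1.25% of all genes (2.38% lay above), and the difference was not called (-1.29 ± 0.95; edgeR adjusted p = 0.842). Bax had 237, 208, 190 and 164 CPM against 562, 458 and 165 CPM. Replicates 1 and 4 lay above every control and replicate 5 among them (0.96 ± 0.62; edgeR adjusted p = 0.713). The log2 fold changes of the others all had an edgeR adjusted p of 1, among them -0.39 ± 0.57 for Bcl2a1d, -0.84 ± 1.70 for Bcl2a1b, -1.26 ± 1.65 for Birc3 and 2.44 ± 2.32 for Cflar. Cflar had 2.73, 1.40, 0 and 27.5 CPM in Irf1_FF and 126, 2.09 and 6.79 CPM in Irf1_dXCR1, so the high value belongs to replicate 1. Birc2, Bcl2, Bcl2l1 and Bcl2l11 had libraries at 0 too. Their Irf1_dXCR1 plates spanned 38.4 to 63.4, 0 to 28.3, 0 to 46.0 and 0 to 59.9 CPM, against 0 to 126, 3.26 to 96.9, 0 to 156 and 0 to 149 CPM in Irf1_FF. No gene of 12048 was called by edgeR (0%; 500 with an unadjusted p under 0.05, 0 of them members, and 107 called by DESeq2, no member). The class switch itself did not differ in a called way between Irf1_dXCR1 and Irf1_FF for any of the 9 tested members, nor for any of 5561 genes in edgeR (0%; 79 with an unadjusted p under 0.05 and 96 called by DESeq2, 0 of them members). The differences of log2 fold changes were 1.35 ± 1.34 for Bcl2a1b, 0.96 ± 0.66 for Bcl2a1d, 1.75 ± 1.06 for Mcl1 and -2.46 ± 2.65 for Cflar (edgeR adjusted p = 1 each). They were -0.70 ± 0.86 for Bax, 1.55 ± 2.15 for Birc3, -2.41 ± 2.90 for Birc2, 1.63 ± 3.52 for Bcl2l1 and -1.33 ± 6.92 for Bcl2l11, where the median of all genes was 0.33. With SEs of this size, differences of about these sizes were not detectable.

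**Figure D5:**
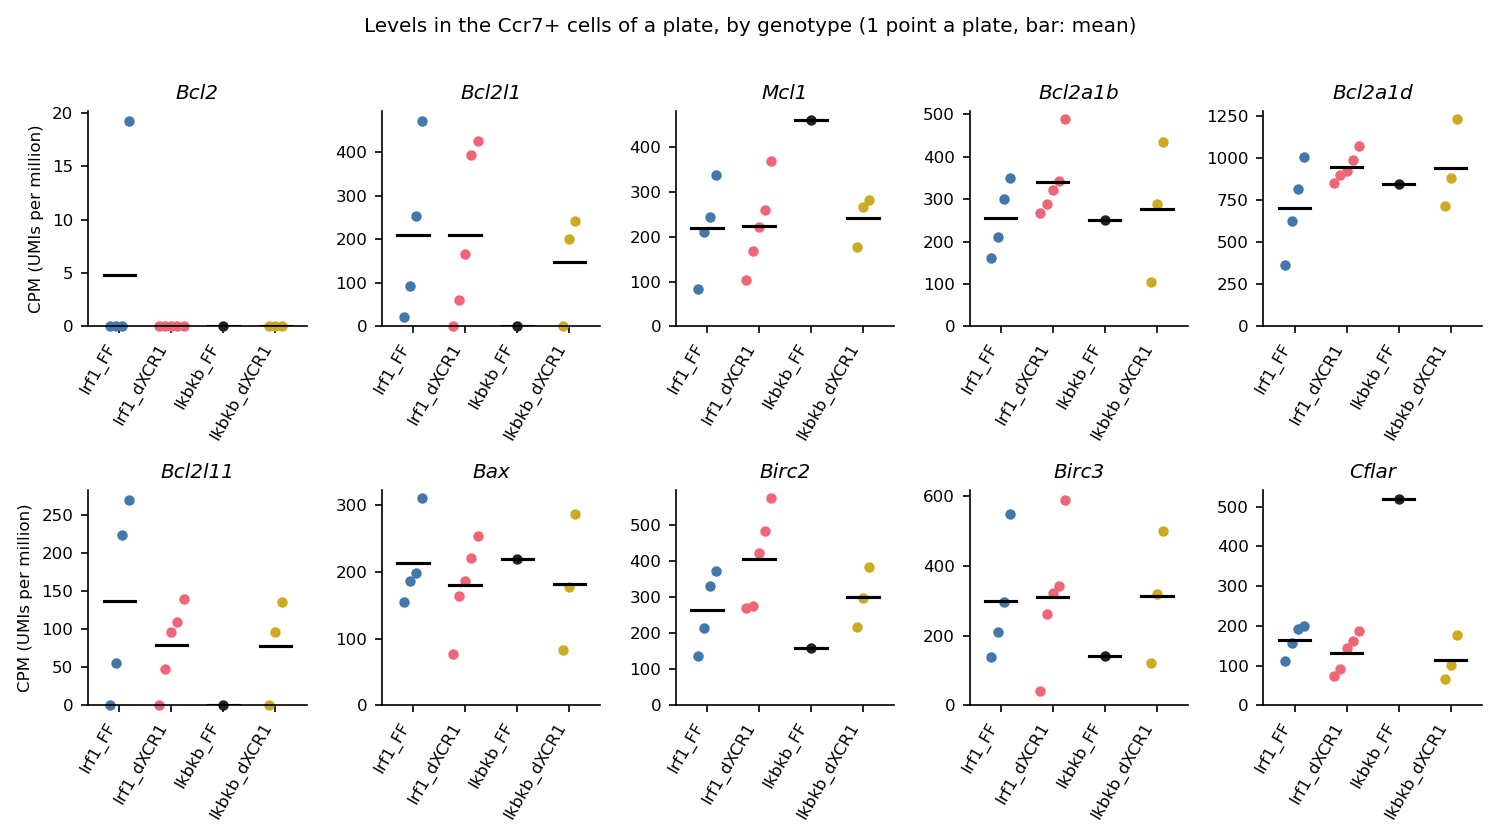
CPM of each gene in the Ccr7+ cells of a plate, 1 point a plate, in Ikbkb_FF (1 plate), Ikbkb_dXCR1 (3), Irf1_FF (4) and Irf1_dXCR1 (5), with the group mean as a bar and a linear axis from 0. Bcl2a1d reaches 850 to 1069 CPM in all 5 Irf1_dXCR1 plates and spreads from 364 to 1005 CPM in Irf1_FF, and Cflar stands at 519 CPM in the single Ikbkb_FF plate.

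The Ikbkb comparison has 1 control plate, whose spread is borrowed from the other groups. Over all cells no member was called, as was no gene of 16203 in edgeR (0%; 707 with an unadjusted p under 0.05, 1 member among them, and 1177 called by DESeq2, no member). Birc3 had 53.3 CPM in Ikbkb_FF and 150, 162, 219 and 202 CPM in Ikbkb_dXCR1 replicates 1 to 4. All 4 lay above the control (1.82 ± 0.81; unadjusted p = 0.0383, edgeR adjusted p = 1), but the 4 Irf1_FF plates spanned 64.8 to 221 CPM. Bcl2a1b had 83.1 CPM against 62.4, 32.0, 191 and 163 CPM, and Bcl2a1d 420.2 CPM against 347, 327, 585 and 535 CPM. Bcl2l1 had 19.0 CPM against 0.159 to 113 CPM, Birc2 123 CPM against 60.8 to 184 CPM and Cflar 110 CPM against 61.4 to 110 CPM, and the control lay inside each range. In both Bcl2a1 copies the 8-week plates (replicates 1 and 2) lay below the 8-week control and the 6-week plates (replicates 3 and 4) above it. Replicates 1 and 2 held 5 and 4 Ccr7+ cells of 18 and 26, and replicates 3 and 4 held 15 and 22 of 38 and 51, so age, the share of Ccr7+ cells and the plate cannot be told apart here. For 5 of 10 members all 4 plates lay on 1 side of the control (Bcl2l11 and Birc3 above, Bcl2, Mcl1 and Bax below), where 6.59% of all genes lay above and 16.5% below.

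Bcl2 had 14.6 CPM in the Ikbkb_FF plate and 0.297, 2.31, 0 and 0 CPM in the Ikbkb_dXCR1 plates. Set against all 5 floxed control plates, which had 12.2 to 39.7 CPM, it was the only member without overlap (0.802% of all genes were lower in this way and 0.414% higher). The log2 fold change of -5.03 ± 1.82 was not called (unadjusted p = 0.0142, edgeR adjusted p = 0.477). Of these controls, the 4 Irf1_FF plates belong to experiment M3, while the Ikbkb_FF and Ikbkb_dXCR1 plates belong to M2. Against the Irf1_FF plates, genotype and experiment cannot be told apart. Irf1_dXCR1 plates had 4.30 to 50.5 CPM of Bcl2. These levels rest on few cells, since Bcl2 had a UMI in 23 of 555 cells: 2.94% of cells in the Ikbkb_FF plate, 0 to 5.56% in Ikbkb_dXCR1 plates and 3.23 to 7.84% in Irf1_FF plates. In Xcr1+ Ccr7- cells alone Bcl2 had 23.9 CPM in Ikbkb_FF and 0, 4.37, 0 and 0 CPM in Ikbkb_dXCR1, while Irf1_FF plates had 3.27 to 96.9 CPM, so there the 5 controls overlapped with them. It was the only member in that class with all plates on 1 side of the single control (2.91% of all genes above and 21.4% below), and none of the 10 stood apart from all 5 controls (0.274% above and 0.838% below).

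Within Ccr7+ cells the control plate had 8 cells. Cflar had 519 CPM in it and 102, 177 and 67.0 CPM in Ikbkb_dXCR1 replicates 1, 3 and 4 (-2.18 ± 1.52; edgeR adjusted p = 0.837). The 4 Irf1_FF plates had 111 to 201 CPM, so the high value belongs to that 1 plate. Mcl1 had 462 CPM against 267, 282 and 178 CPM, and Birc2 158 CPM against 384, 297 and 219 CPM. Bcl2a1d had 845 CPM against 716, 1233 and 879 CPM, with the control inside the range. The control also lay inside the range for Bcl2a1b (251 CPM against 104 to 434), Birc3 (143 CPM against 121 to 500.0) and Bax (219 CPM against 83.0 to 286). Bcl2l1 and Bcl2l11 had no count in the control and in 1 targeted plate each, and reached 241 and 136 CPM in the others; Bcl2 had no count in any of these plates. For 3 members all plates lay on 1 side of the control (Birc2 above, Mcl1 and Cflar below; 11.6% of all genes lay above and 13.9% below), and for none when all 5 floxed controls were used (1.02% of all genes above and 0.484% below). No member was called in edgeR, where 0.144% of 11786 genes were (569 genes had an unadjusted p under 0.05, Bcl2l1 among them, and DESeq2 called 1181, no member). The median log2 fold change of all genes was 0.90 in this fit, whose control is that plate of 8 cells. Why this median lay above 0 was not tested. A member's value near 0 is therefore not read as low. For Bcl2a1d, Bcl2a1b and Bax the control CPM lay inside the range of the targeted plates. Within Xcr1+ Ccr7- cells no member and no gene of 12048 was called in edgeR (0%; 474 with an unadjusted p under 0.05, 0 of them members, and 528 called by DESeq2, no member). There the control had 350 CPM of Bcl2a1d against 139 to 379 CPM in Ikbkb_dXCR1 plates, 45.6 CPM of Bcl2a1b against 28.9 to 87.7, 215 CPM of Mcl1 against 42.0 to 347, and 262 CPM of Bax against 122 to 295. It had 156 CPM of Birc2 against 35.5 to 175, 4.17 CPM of Birc3 against 0 to 176, and 32.0 CPM of Cflar against 3.63 to 81.1. Bcl2l1 had 31.1 CPM against 0 to 101 and Bcl2l11 14.7 CPM against 0 to 52.1. The control lay within the range of the targeted plates for all 9 of these members. The switch did not differ in a called way for any member between the Ikbkb genotypes in edgeR, where 0.324% of genes did and the median difference of all genes was 2.28. DESeq2 called 2 members there, Bcl2l1 and Bcl2l11, both with no count in the 8 Ccr7+ cells of the control plate, and 777 of 5561 genes in all. The 2 members have no readable fold against that plate. For the other members the differences of log2 fold changes lay between -2.97 ± 3.44 (Birc3) and 1.10 ± 3.06 (Birc2), with Cflar at -2.38, Bcl2a1b at -0.74, Mcl1 at -0.50, Bax at -0.17 and Bcl2a1d at 0.72.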

How the data were processed

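The counts were deposited by the authors as UMI counts per gene and cell, as whole numbers, and the authors' cell table adds the fraction of UMIs from mitochondrial genes or spike-ins and, for 458 cells, arcsinh values of stainings. Cells were sorted singly into wells, and oligonucleotides specific to the well added a UMI at the 5′ end of transcripts, per the labels' protocols. The build was GRCm38 and the tools were HTSeq 0.9.1, STAR 2.5.3a and bcl2fastq, per the submitters' processing notes. A count is at most 1024, the number of different UMIs of 5 bases; the highest for a member was 669, of Bcl2a1d in 1 cell. Plate and genotype in the cell table matched the labels for all 14 plates. All 94 well codes occur on more than 1 plate, and 0 cells held the counts of another cell. No doublet caller was run, since cells were sorted singly.

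Counts were summed per plate, or per plate and class with at least 5 cells, and tested with the two-sided quasi-likelihood test of edgeR 4.0.16 (TMM, filterByExpr, R 4.3.3) across all genes that passed the filter, with Benjamini-Hochberg adjustment and a threshold of 0.05. The class comparison had the plate as a block, because both classes come from the same tumour; genotype fits held all plates, which share one estimate of the spread. Summed class libraries held 1039396 to 3588876 scaled UMIs, so 3 counts were 0.836 to 2.89 CPM. Stainings were compared by exact sign-flip permutation of plate medians. Simulated data were run through the class fit and the Irf1 fit over all cells only. The Ikbkb fits, the genotype fits within a class and the fits of a differing switch were not simulated. Alternatives were factors by upper quartile, every gene with a count in place of the filter, DESeq2 1.42.0, limma 3.58.1 with cells weighted equally, other minimum cell numbers and class definitions, left-out cells or plates, and, added after seeing the data, an exact sign-flip permutation test per gene.

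Positions come from GRCm38 annotation (GENCODE) and promoters from RefSeq (GRCm38.p6). The members and lists were chosen with earlier results of these data known. All 10 members are named in every comparison in which they were tested; of the wider list, up to 3 genes per role and direction past the threshold in the class comparison, and any past it between genotypes. The targeted genes, Bcl2a1a and Bcl2l14 between genotypes were chosen after their values were seen.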

Additional observations from a re-analysis of the deposited data

Results flagged for a closer look

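Among 69 groups of plates tested for a value far from the others, 10 had one. The limit used is passed by chance in about 1 of 20 groups of normally distributed values. Groups with counts of 0 are not such groups, and some groups share cells. So the count of 10 cannot be set against that rate. Bcl2 was counted in single plates of its groups: it had 2.31 CPM over all cells of Ikbkb_dXCR1 replicate 2 (others 0 to 0.297), 4.37 CPM in the Xcr1+ Ccr7- cells of that plate (others 0), and 19.2 CPM in the Ccr7+ cells of Irf1_FF replicate 1 (others 0). Mcl1 had 358 CPM over all cells of Irf1_dXCR1 replicate 1, where the other 4 plates had 101 to 160 CPM. Bax was low in Ikbkb_dXCR1 replicate 1, with 102 CPM over all cells (others 242 to 264) and 122 CPM in Xcr1+ Ccr7- cells (others 276 to 295). In the Xcr1+ Ccr7- cells of Ikbkb_dXCR1 replicate 4, Bcl2l1 had 101 CPM and Bcl2l11 52.1 CPM, where the other 3 plates had 0 to 0.726 CPM of each. In the same class, Birc3 had 7.31 CPM in Irf1_FF replicate 3 (others 149 to 164) and Cflar 27.5 CPM in Irf1_FF replicate 4 (others 0 to 2.73).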

How the results depend on the processing

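In the class comparison 2 members were called, and Bcl2a1d was among the calls in 21 of 22 alternatives, Bcl2a1b in 19, Cflar in 6, Birc2 in 4 and Birc3 in 3. DESeq2 called 7 members (all but Bax and Bcl2l11 of those tested; 1253 genes against 217), limma with cells weighted equally 7 (6 higher and Bax lower; 1889 genes), and the added sign-flip permutation test 5; the cause was not tested. With at least 10 cells per class 4 plates remained and 1 member, Bcl2a1d, was called, with 74 of 7363 genes; the log2 fold change of Bcl2a1b was 3.50 (edgeR adjusted p = 0.0785). Without cycling cells 0 members were called in edgeR (7 plates, 82 genes). Leaving out each plate in turn gave 2 to 3 calls, with Cflar the third without Ikbkb_dXCR1 replicate 1. In these fits 154 to 218 genes were called, of 5360 to 5856 tested. Without the plate as a replicate block the count stayed at 2 (203 genes), with Bcl2a1b at 2.52 and Bcl2a1d at 1.59; the block changed no call of a member. No paired analysis was possible because replicate numbers of the genotype groups follow the order of the accessions and pair no mice. Of 102 alternatives to the 8 genotype results, 101 called no member; DESeq2 called 2 whose switch differs between the Ikbkb groups, with 777 of 5561 genes. Thinning to 20000 UMIs or none left the 8 members with the higher share in Ccr7+ cells at 8. Not run for want of cells were Ccr7+ cells with an Xcr1 UMI alone, at least 10 cells in the Ikbkb control, and its class difference without cells of other markers. Thinning to 20000 UMIs lowered the share of Xcr1+ Ccr7- cells with a Cflar UMI from 13.4% to 9.40% and that of Bcl2l1 from 8.05% to 6.71%.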
